A study of Mus musculus with 52 samples.

Results

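The comparison described here sets the frontal cortex of mice lacking the microRNA gene Mir146 (KO) against that of wild-type mice (WT) at postnatal day 30 (P30). Its members are 8 of the 52 libraries of the series, 4 KO and 4 WT, taken by their labels for genotype, age and region. RNA was sequenced from poly-A selected, stranded, paired-end libraries of bulk tissue, and per the design text the mice were born to different dams. That text speaks of sensory rather than frontal cortex; the labels of the samples are used here. The labels give the KO genotype as miR-146a KO and the controls as WT. They give no strain, no construct or extent of the deletion, no sex and no statement of whether WT animals were littermates. For comparison, 8 libraries of the amygdala and 8 of the hippocampus at P30, and 7 of the frontal cortex at postnatal day 60 (P60; 4 KO and 3 WT), carry the same 2 genotypes.

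MiR-146a is a microRNA that binds messages through its seed, the stretch near its 5′ end, and lowers their stability or translation. Its best known targets are Traf6 and Irak1, an adaptor and a kinase that pass signals from Toll-like and interleukin-1 receptors to the transcription factor NF-kB. Because NF-kB in turn induces Mir146, the microRNA acts as a brake on inflammatory signalling, and in the nervous system it has also been tied to Notch1 and its inhibitor Numb. Its relative miR-146b is made from a separate gene on another chromosome.

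The sequences below are the mature strands of Mir146, which by their label the KO animals lack, and that of the relative miR-146b-5p. The mature strands are from RefSeq (GRCm38.p6), with bases 2 to 8, the seed, in capitals. MiR-146a-5p lies at chr11:43374435-43374456 on the minus strand and miR-146b-5p at chr19:46342790-46342811 on the plus strand, and their seeds are the same. The other arm of the hairpin, miR-146a-3p, lies at chr11:43374399-43374420 on the minus strand and has another seed.
mmu-miR-146a-5p: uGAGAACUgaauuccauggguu
mmu-miR-146b-5p: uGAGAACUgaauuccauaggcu
mmu-miR-146a-3p: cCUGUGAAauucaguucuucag

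The reverse complement of the seed followed by A, AGTTCTCA, is the longest canonical site (8mer). Its first occurrence in the longest annotated 3′ UTR (GENCODE M21, GRCm38) is printed for 5 reported targets, site in capitals. Traf6 has 4 such sites in 4170 bases, Irak1 has 2, and Irak2, Notch1 and Numb have 1 each. The printed Traf6 stretch is chr2:101697939-101697968 (plus strand), that of Irak1 chrX:74015391-74015420 (minus) and that of Irak2 chr6:113694246-113694275 (plus). That of Notch1 is chr2:26459261-26459290 (minus) and that of Numb chr12:83794811-83794840 (minus).
Traf6: aagttaccgctctggtgttgAGTTCTCAtt
Irak1: ccctcagactcagaggtcaaAGTTCTCAtg
Irak2: ctacagccggtgtctccgcaAGTTCTCAag
Notch1: ctgttccaagaaaataaactAGTTCTCAga
Numb: gcacctagaatattttaaatAGTTCTCAat

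Values are the authors' normalised read counts, close to CPM. Whole reads could be recovered from them, 7161325 to 8080536 per KO library and 4870435 to 7349642 per WT library. Mir146 itself (ENSMUSG00000065601, chr11:43374397-43374461, minus strand) had 0 reads in all 8 libraries, KO and WT alike, so these poly-A libraries do not check the genotype labels. A count of 0 allows up to 0.371 on this scale in the deepest library and 0.616 in the shallowest. The region label was checked against regional markers. Cux2, of upper cortical layers, was at 150 to 252 in the 8 libraries against 22.8 to 47.5 in the hippocampus. The single deep-layer genes Tle4 (69.5 to 85.8 against 67.5 to 85.5) and Fezf2 (16.2 to 39.2 against 11.3 to 34.9) did not separate these regions. The mean log2 level of all 14 listed deep-layer genes did, at 5.2 to 5.62 against 4.51 to 4.84 in the hippocampus. In the amygdala that mean was 5.02 to 5.48, which overlaps the cortex. Prox1, of dentate granule cells, was at 25.8 to 39.4 against 236 to 519 in the hippocampus. Drd2, a dopamine receptor abundant in striatum, ranged from 2.84 to 45.0 with a median of 28.4, against 1.63 to 12.8 in the hippocampus, and the choroid plexus gene Ttr reached 639 in KO 2 and 236 in WT 2. Xist and Y-linked genes gave 3 female and 1 male animal in KO, and 1 female and 3 male animals in WT. Every replicate number had the same sex in all 3 regions, so the regions may share animals.

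KO and WT differed in 3 genes, all on chromosome 11, the chromosome of Mir146. These were 0.0158% of the 18976 genes tested, by limma with Benjamini-Hochberg adjusted p under 0.05. In KO, Pttg1 and 9930111J21Rik2 fell to a few reads per library (0.0105% of tested genes fell), and Lyrm7 rose by a fold of 2.09 (0.00527% rose). In the longest annotated 3′ UTR of each, none of the 3 has a match to the miR-146a-5p seed, and the miR-146a-3p seed was not searched for. Fold changes are on the log2(value + 1) scale, which understates the change of low genes.

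Pttg1 encodes securin, which holds separase inactive until sister chromatids separate. It lies at chr11:43420250-43426251 (minus strand), 0.046 Mb from Mir146. In KO 1 to 4 it was at 0.98, 0.77, 0.77 and 0.98, and in WT 1 to 4 at 9.74, 8.85, 7.36 and 9.19. All 4 KO libraries lay far below the lowest WT library, and each held 6 to 8 of its reads. The means were 0.875 ± 0.121 in KO and 8.79 ± 1.02 in WT (SD, n = 4 each). Over the group, 27 reads in KO stood against 221 in WT, a depth-scaled ratio of 10.1 with a counting interval of 6.73 to 15.6 (95%). The log2 change was -2.38 (SE 0.171, limma adjusted p = 4.65e-09).

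9930111J21Rik2 is grouped here with the immunity-related GTPases, interferon-inducible defence proteins, and lies at chr11:49015874-49051242 (minus strand), 5.64 Mb away. Its values were 0.85, 0.13, 0.38 and 0.42 in KO and 7.58, 6.67, 5.32 and 7.90 in WT. Here too every KO library was below every WT library, with means of 0.445 ± 0.299 and 6.87 ± 1.16 (SD, n = 4 each). KO held 14 reads and WT 173, a depth-scaled ratio of 15.2 with a counting interval of 8.81 to 28.4. The log2 change was -2.46 (SE 0.210, limma adjusted p = 1.063e-07). A near-identical copy next to it, 9930111J21Rik1, shares 3221 aligned bases at 98.975% identity, so reads may have been split between the copies. The copy was at 1.83, 1.55, 2.05 and 2.10 in KO and 2.94, 1.5, 0.82 and 1.61 in WT, with overlapping groups and a log2 change of 0.14 (SE 0.214).

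Lyrm7, an assembly factor that hands the iron-sulphur subunit to respiratory complex III, lies at chr11:54826866-54860916 (minus strand), 11.5 Mb from Mir146. It was at 21.98, 18.7, 17.3 and 22.4 in KO and at 8.20, 11.98, 10.02 and 8.22 in WT. The groups did not overlap: the lowest KO library was above the highest WT library. Means were 20.1 ± 2.48 and 9.61 ± 1.799 (SD, n = 4 each). The log2 change was 1.00 (SE 0.161, limma adjusted p = 0.01108). This call was the least firm of the 3, since it held in 9 of 15 alternative analyses, with adjusted p from 0.001324 to 0.11. It was lost with sex as a covariate (0.06116) and with replicate number as a block (0.1071). It was also lost without KO 1 (0.09626), KO 4 (0.1066), WT 1 (0.11) or WT 4 (0.1074), while the log2 change stayed at 0.94 to 1.10. Genes annotated on the other strand over 9930111J21Rik2 and Lyrm7 held 4 reads and 1 read in the 8 libraries.

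**Figure D1:**
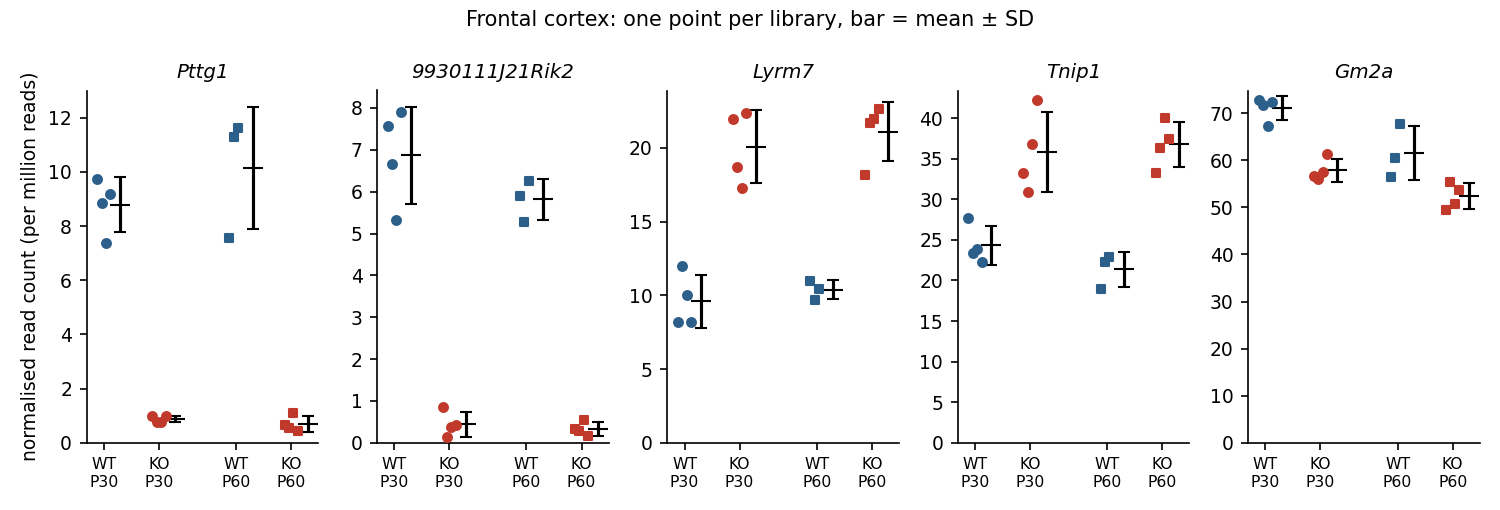
Normalised read count, close to CPM (vertical axis, from 0), of 5 chromosome 11 genes in each frontal cortex library at P30 (4 KO, 4 WT; circles) and P60 (4 KO, 3 WT; squares), with bars for the mean ± SD. KO libraries of Pttg1 sit at 0.77 to 0.98 at P30 against 7.36 to 9.74 in WT, and in all 5 genes the KO and WT groups stay apart at both ages.

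Below the threshold, Tnip1, Mtrr, G3bp1 and Sdr42e1 had the smallest p-values by the naming rule, and Tnip1 led them. Tnip1 encodes ABIN1, which works with the deubiquitinase A20 (Tnfaip3) to restrain NF-kB. The gene lies at chr11:54910785-54962917 (minus strand), near Lyrm7, with Hint1 between them. It was at 33.2, 31.0, 36.8 and 42.2 in KO and 27.7, 23.4, 23.9 and 22.2 in WT, with no overlap. The log2 difference of 0.54 (95% interval 0.30 to 0.77) did not pass (limma adjusted p = 0.4536, 0.1407 to 1.0 over the alternatives). G3bp1, a core protein of stress granules, was at 34.4, 34.7, 33.3 and 39.2 in KO and 43.0, 41.1, 46.8 and 40.3 in WT (log2 difference -0.27, unadjusted p = 0.0004688). Gm2a, the activator protein for ganglioside breakdown, was named because it was called in the P30 amygdala and hippocampus. In the cortex Gm2a was at 56.7, 56.0, 57.4 and 61.3 in KO against 72.9, 71.8, 67.3 and 72.4 in WT (log2 difference -0.29, unadjusted p = 0.0008996). G3bp1 and Gm2a both lie within 12.1 Mb of Mir146, and in both every KO library was below every WT library. A processed pseudogene on chromosome 8, Gm5913, shares 97.999% of 1399 bases with G3bp1 and was at 2.81, 1.81, 1.79 and 1.68 in KO and 1.39, 0.82, 0.61 and 1.61 in WT.

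Outside chromosome 11, the rule named Mtrr and Sdr42e1. Mtrr, the reductase that reactivates methionine synthase (chromosome 13), was at 6.59, 10.1, 8.08 and 8.11 in KO and 4.49, 5.17, 5.72 and 5.64 in WT (log2 difference 0.55, limma adjusted p = 0.6329). Sdr42e1, a dehydrogenase-family gene on chromosome 8, was at 6.84, 7.23, 6.54 and 6.57 against 4.95, 5.58, 2.25 and 2.58 (log2 difference 0.75, unadjusted p = 0.0008962). At P60 the log2 difference was 0.054 for Mtrr and -0.42 for Sdr42e1.

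Across all genes, 371 (1.96%) had an unadjusted p under 0.05 and 447 (2.36%) had KO and WT groups that did not overlap, 260 with KO higher (1.37%) and 187 with KO lower (0.985%). The median SE of a log2 change was 0.154 over all tested genes and 0.106 over the 10356 genes with a mean of at least 10. Only 14 genes had a log2 difference beyond 1 in either direction.

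Genes with low p-values were concentrated on the side of Mir146 with higher coordinates. Within 15 Mb of it on either side, 224 genes were tested, 3 were called, 20 had an unadjusted p under 0.05 (8.929%) and 15 did not overlap between KO and WT (6.696%). Among the 18752 genes elsewhere, none was called, 351 had an unadjusted p under 0.05 and 432 did not overlap (2.304%). All 20 low-p neighbours lay between 0.046 and 12.1 Mb on that side, while the 77 tested genes of the 15 Mb on the other side held 0. The stretch from 10 to 15 Mb held the most, 13 of 55 genes (23.64%), and that from 15 to 20 Mb held 2 of 96. By the other measure the edge was less sharp. KO and WT did not overlap in 9 of 55 genes from 10 to 15 Mb (16.36%) and in 6 of 96 from 15 to 20 Mb (6.25%). On the rest of chromosome 11, 17 of 1145 genes had an unadjusted p under 0.05.

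Of the 16 tested genes within 2 Mb of the deleted gene, Pttg1 was called and was the 1 gene with an unadjusted p under 0.05 (6.25%, beside 1.96% of all genes). In that window 2 genes did not overlap (12.5%, beside 2.36%), Pttg1 and Atp10b. Atp10b, a phospholipid flippase 0.112 Mb on the other side, was at 9.04, 7.10, 7.18 and 7.83 in KO and 5.57, 5.85, 3.07 and 6.61 in WT. Its groups did not overlap, but the log2 difference of 0.52 had a 95% interval of -0.24 to 1.28.

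Further out, neighbours differed in both directions. Kif3a, a kinesin-2 motor subunit, was at 136, 145, 136 and 129 in KO and 168, 159, 162 and 164 in WT (log2 difference -0.26, unadjusted p = 0.001867). Hint1, a purine phosphoramidase, was at 58.3, 61.7, 55.4 and 48.7 against 45.5, 45.2, 46.8 and 49.3 (0.25, unadjusted p = 0.001712), and only KO 4 fell within the WT range. P4ha2, a subunit of collagen prolyl 4-hydroxylase, was at 13.3, 15.2, 19.0 and 16.6 against 10.4, 9.39, 13.3 and 9.67 (0.55, unadjusted p = 0.002307). Of the 20, Gm12568 lies inside Cyfip2, Gm12229 inside Cdc42se2 and Gm12207 inside Skp1a on the same strand, so their reads cannot be separated with certainty from those of the larger genes.

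**Figure D2:**
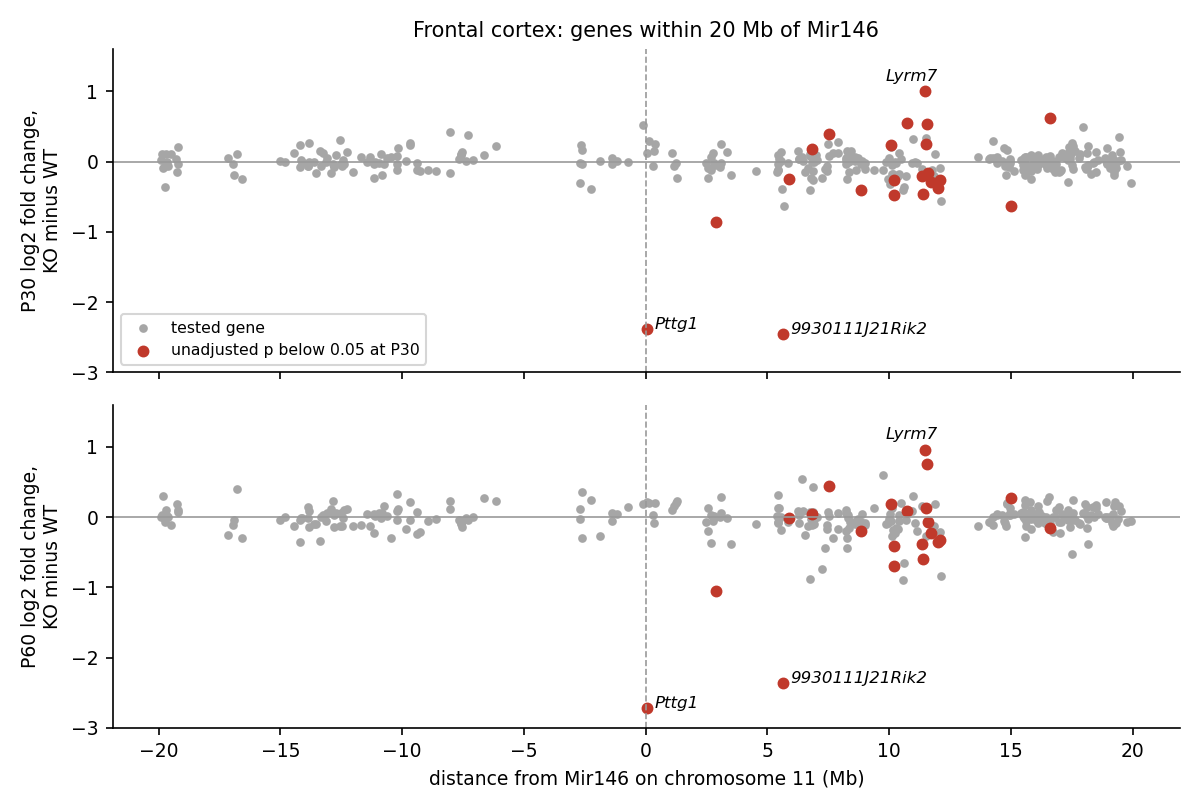
Log2 difference, KO minus WT (vertical axis), of genes tested at P30 within 20 Mb of Mir146 against its distance from Mir146 in Mb (horizontal axis), at P30 (top) and P60 (bottom); red points had an unadjusted p under 0.05 at P30. Within 15 Mb the red points all lie between 0.046 and 12.1 Mb to the right, and of the genes plotted Pttg1 and 9930111J21Rik2 are lowest and Lyrm7 highest at both ages (Olfr1372-ps1, tested at P60 alone, is not plotted).

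The P60 frontal cortex, which shares no library with P30, gave a second reading of the same genes. There 6 genes were called (0.0312% of 19239): Pttg1, 9930111J21Rik2, Lyrm7, Tnip1, Kif3a and the pseudogene Olfr1372-ps1, all on the same stretch of chromosome 11. Pttg1 was at 0.64, 0.55, 1.11 and 0.45 in KO and 7.55, 11.3 and 11.6 in WT (log2 change -2.72, limma adjusted p = 1.27e-06). 9930111J21Rik2 was at 0.32, 0.28, 0.55 and 0.15 against 5.90, 5.28 and 6.26 (-2.37, limma adjusted p = 1.27e-06). As at P30, no KO library of either gene reached the WT range.

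Lyrm7 at P60 was at 18.2, 21.7, 21.97 and 22.6 in KO and 10.98, 9.71 and 10.4 in WT (log2 change 0.96, limma adjusted p = 0.000937). Tnip1, not called at P30, was at 33.3, 36.4, 40.1 and 37.4 against 18.9, 22.3 and 22.95 (0.76, limma adjusted p = 0.003538). Kif3a was at 133, 126, 134 and 126 against 166, 184 and 168 (-0.41, limma adjusted p = 0.01607). Each of these genes kept its KO and WT libraries apart at both ages. Olfr1372-ps1 was too low to be tested at P30, where it was at 1.34, 0.90, 1.79 and 1.12 in KO (40 reads) and 0.00, 0.27, 0.41 and 0.00 in WT (4 reads).

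The 20 low-p neighbours of Mir146 and the low-p genes elsewhere differed in how their P30 values compared with P60. All 20 neighbours had the same sign at P60, 12 of them with an unadjusted p under 0.05, where the P60 background was 2.24%. Their median absolute log2 difference was 0.385 at P30 and 0.368 at P60. Of the 351 genes elsewhere, 343 were tested at P60, 42.57% had the same sign, and their median absolute difference went from 0.384 to 0.0989. Among these, 5 had an unadjusted p under 0.05 at P60, 2 of them with the P30 sign. The genes elsewhere include the 2 low-p genes from 15 to 20 Mb, and both had the other sign at P60. Pemt went from 0.619 to -0.151 and Gm12251, at 15.018 Mb, from -0.63 to 0.272, so the shared sign holds for the 15 Mb window used. The neighbours also had higher levels (median 26.9 against 5.84), so their values rest on more reads.

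**Figure D3:**
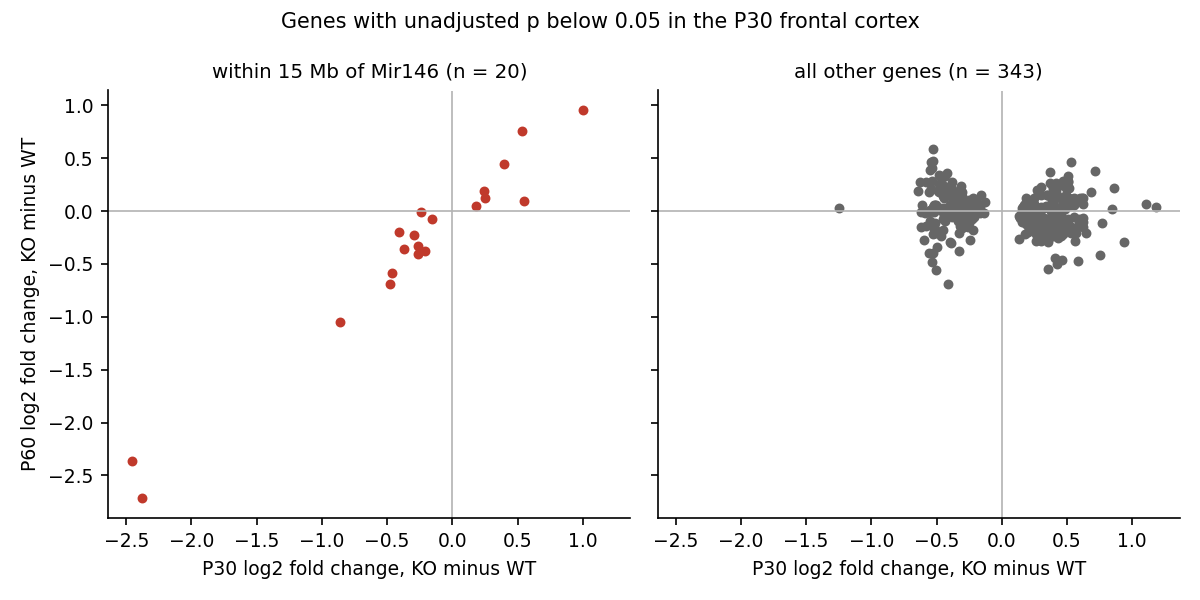
Log2 difference, KO minus WT, at P60 (vertical axis) against P30 (horizontal axis) for genes with an unadjusted p under 0.05 at P30, 1 point per gene. The 20 genes within 15 Mb of Mir146 (left) all have the same sign at both ages, and of 343 tested genes elsewhere (right) 42.57% do.

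In the other P30 regions, the 3 called genes differed in the same direction. The log2 difference of Pttg1 was -2.51 in the amygdala and -2.50 in the hippocampus, that of 9930111J21Rik2 -3.02 and -2.48, and that of Lyrm7 1.12 and 1.43. All 3 were among the 5 genes called in the amygdala (0.0263%) and the 6 called in the hippocampus (0.0316%). The difference between regions was tested in the same limma fit for every gene. No gene was called against the amygdala or the hippocampus (0.0% each), with 637 (3.36%) and 941 (4.96%) at an unadjusted p under 0.05, and limma's voom on the recovered reads also called none, with 724 and 878. This fit treats the regions as separate animals. With libraries of the same genotype and number taken as 1 animal, limma again called none, with 765 and 1028 at an unadjusted p under 0.05. For the 3 genes the smallest unadjusted p of such a difference was 0.06845, for 9930111J21Rik2 against the amygdala (0.09508 with shared animals, where that of Lyrm7 against the hippocampus was 0.08053). These data therefore do not set the cortex apart for any 1 gene, which does not show that the regions respond alike.

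The direct targets of miR-146a gave no called gene. Traf6, the ubiquitin ligase downstream of the receptors, was at 25.03, 25.6, 26.4 and 26.0 in KO and 23.5, 27.4, 26.6 and 23.7 in WT, a log2 difference of 0.028 with a 95% interval of -0.15 to 0.21. Irak1 was at 41.4, 41.9, 48.1 and 42.5 against 36.7, 40.0, 46.2 and 47.1 (0.037, -0.17 to 0.25). Irak2, a related kinase, was at 16.6, 21.7, 22.3 and 21.96 against 22.3, 18.8, 20.4 and 19.5 (0.020, -0.24 to 0.28). KO and WT overlapped in all 3, and a rise of the message beyond these upper bounds lay outside the intervals.

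Notch1 was at 50.8, 46.3, 56.0 and 55.0 in KO and 56.5, 56.0, 45.0 and 50.6 in WT (0.003, interval -0.20 to 0.21). Numb was at 73.9, 83.2, 76.7 and 72.4 against 71.3, 71.3, 87.5 and 70.1 (0.032, -0.29 to 0.36). Neither receptor nor inhibitor was separated by genotype. Of the 24 reported targets listed, 23 were tested, 19 had a KO mean above WT, and the median difference was 0.028 beside 0.010 over all tested genes, of which 54.1% had KO above WT. At P60 the median of the list was -0.050.

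All annotated 3′ UTRs were then searched on the transcript strand for AGTTCTCA (8mer), AGTTCTC or GTTCTCA, each gene counted under its best match. Of 14151 tested genes with an annotated 3′ UTR, 719 (5.08%) held an 8mer, 1250 (8.83%) the 7-base site AGTTCTC, 1213 (8.57%) GTTCTCA and 10969 (77.51%) none. The median log2 difference was 0.0127 with an 8mer, 0.0124 and 0.0123 with the 7-base sites, and 0.0125 with none. KO was above WT for 56.7% of 8mer genes and 55.6% of genes with no site. At P60 the median was 0.004 for 721 8mer genes and 0.0006 for those with no site.

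No 8mer gene was called at either age, and 15 of the 719 did not overlap between KO and WT at P30, 14 with KO higher and Cdh6, a cadherin, lower. Over all tested genes at P30, 2.36% did not overlap, 1.37% with KO higher and 0.985% with KO lower. Among the 8mer genes with KO higher was Cd86, a costimulatory receptor of antigen-presenting cells, at 2.32, 2.32, 3.20 and 3.78 in KO and 2.01, 2.18, 1.43 and 2.26 in WT. Ube2n, the ubiquitin-conjugating partner of Traf6, was at 115, 124, 108 and 116 against 97.9, 107, 92.4 and 107. Uqcrq, 10.1 Mb from Mir146 on chromosome 11, had the lowest p of the 15 (limma unadjusted p = 0.008972). At P60, KO and WT overlapped in Cd86 and Ube2n (log2 difference 0.041 and 0.015) and did not in Uqcrq (0.189). Of genes with no site, 139 of 10969 did not overlap at P30 with KO higher and 94 with KO lower. At P60, where 5.26% of all tested genes did not overlap, the 8mer genes without overlap were 12 higher and 21 lower.

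Upstream of Traf6, 18 of 21 listed genes of Toll-like and interleukin-1 receptor signalling were tested, 10 with KO above WT, none called, median 0.011. Tlr4, the endotoxin receptor, was at 1.83, 2.97, 2.69 and 2.66 in KO and 2.63, 2.18, 2.25 and 2.90 in WT. The adaptor Myd88 was at 2.69, 3.61, 2.69 and 2.52 against 2.32, 2.72, 1.43 and 3.87, also overlapping. Of the 18, 1 did not overlap, beside 2.36% of all tested genes. It was Ecsit, a Traf6-binding adaptor that also assists complex I assembly, at 24.5, 20.3, 20.1 and 26.2 against 19.5, 19.1, 18.4 and 18.7 (log2 difference 0.25, unadjusted p = 0.01291).

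Among NF-kB subunits, kinases and inhibitors, 17 were tested, 10 had KO above WT, and the median was 0.018. The subunits Rela and Nfkb1 differed by 0.082 and -0.007, and the kinase subunit Ikbkb by -0.039. The inhibitor Nfkbia, itself an NF-kB target, was at 11.97, 16.6, 14.1 and 16.8 in KO and 14.2, 10.4, 14.5 and 14.2 in WT (0.15). Tnfaip3 differed by 0.040. Tnip1 was described above, and its relative Tnip2 differed the other way, by -0.27 (unadjusted p = 0.03918), and by -0.068 at P60. Only 8 of 20 listed cytokines and NF-kB target genes reached the level needed for a test, none was called and their median was -0.010, so this tissue gives little depth for them.

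In the Notch list, 22 genes were tested, 10 with KO above WT and none called, with a median of -0.005. The effector Hes5 was at 2.32, 2.45, 3.46 and 3.22 in KO and 0.62, 2.45, 2.45 and 1.77 in WT (log2 difference 0.50, SE 0.257). The effectors Hes1 and Hey1 differed by -0.022 and 0.053. Interferon-stimulated genes (20 tested) had 12 members with KO above WT and a median of 0.076 (0.053 to 0.14 with 1 library left out, the highest without KO 1), with none called. Complement and antigen presentation genes (13 tested) had a median of 0.040, with none called, which was -0.071 without WT 4 and 0.15 without WT 1.

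The partners of the 3 called genes were listed as well. Espl1, which encodes separase, was at 1.10, 1.42, 1.15 and 0.98 in KO and 1.39, 0.82, 0.61 and 1.13 in WT. The cohesin subunits Smc1a, Smc3 and Rad21 differed by -0.066, -0.037 and 0.066, and the cohesin loader Mau2 by 0.15 (unadjusted p = 0.01887). Pttg1 was the called gene of the 14 tested in that list, whose median was 0.004.

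For Lyrm7, 20 genes of complex III and its assembly were tested, 14 with KO above WT, and Lyrm7 was the called one. Its client, the iron-sulphur protein Uqcrfs1, was at 20.4, 21.2, 23.3 and 17.5 in KO and 17.6, 18.7, 18.8 and 19.2 in WT. Uqcrq, a small subunit encoded 10.1 Mb from Mir146, was at 41.8, 39.7, 41.5 and 40.4 against 31.4, 35.7, 38.4 and 32.7 (log2 difference 0.24, unadjusted p = 0.008972), and 0.19 at P60. Uqcrc1, a core subunit, also had no overlap, with a log2 difference of 0.12. The median of the list was 0.015.

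Among immunity-related GTPases, 9 of 13 were tested and 9930111J21Rik2 was the called one. Irgm1 was at 5.98, 6.97, 7.43 and 6.71 in KO and 8.82, 5.99, 4.29 and 8.06 in WT, and Iigp1 at 1.83, 2.19, 4.74 and 2.10 against 3.25, 1.63, 1.64 and 1.93. The other members thus overlapped where they are named here, and the list's median was 0.018.

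Besides Pttg1, Lyrm7 and 9930111J21Rik2, no member of the 38 lists was called. The largest median was that of the immediate early genes, transcription factors and effectors induced within minutes of neuronal activity: 0.25, with 17 of 18 members above WT. Npas4 was at 31.6, 15.4, 34.7 and 47.1 in KO and 18.7, 14.98, 21.3 and 17.1 in WT (unadjusted p = 0.0474), and Nr4a3 at 55.3, 68.0, 64.7 and 70.9 against 54.5, 35.8, 54.8 and 48.8. A score per library, the mean over members of each gene's z value across the 8 libraries, was -0.16, -0.44, 0.88 and 0.90 in KO and 0.25, -1.45, 0.08 and -0.07 in WT. KO 3 and KO 4 were high, WT 2 was low, and the median of the list was 0.066 without WT 2, 0.39 without KO 1 and 0.48 with sex as a covariate. At P60 it was 0.19.

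The next genes of the same response, induced later, had a median of 0.12 with 15 of 18 above WT (0.045 without WT 2, and 0.086 at P60). Synaptic lists lay near the median of all genes: ionotropic glutamate receptors at 0.000, GABA-A receptors at -0.014, synaptic vesicle genes at -0.020 and postsynaptic scaffold and adhesion genes at -0.028. Glucocorticoid response genes had a median of 0.12 with 13 of 16 above WT (0.073 without WT 2), and -0.098 at P60.

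**Figure D4:**
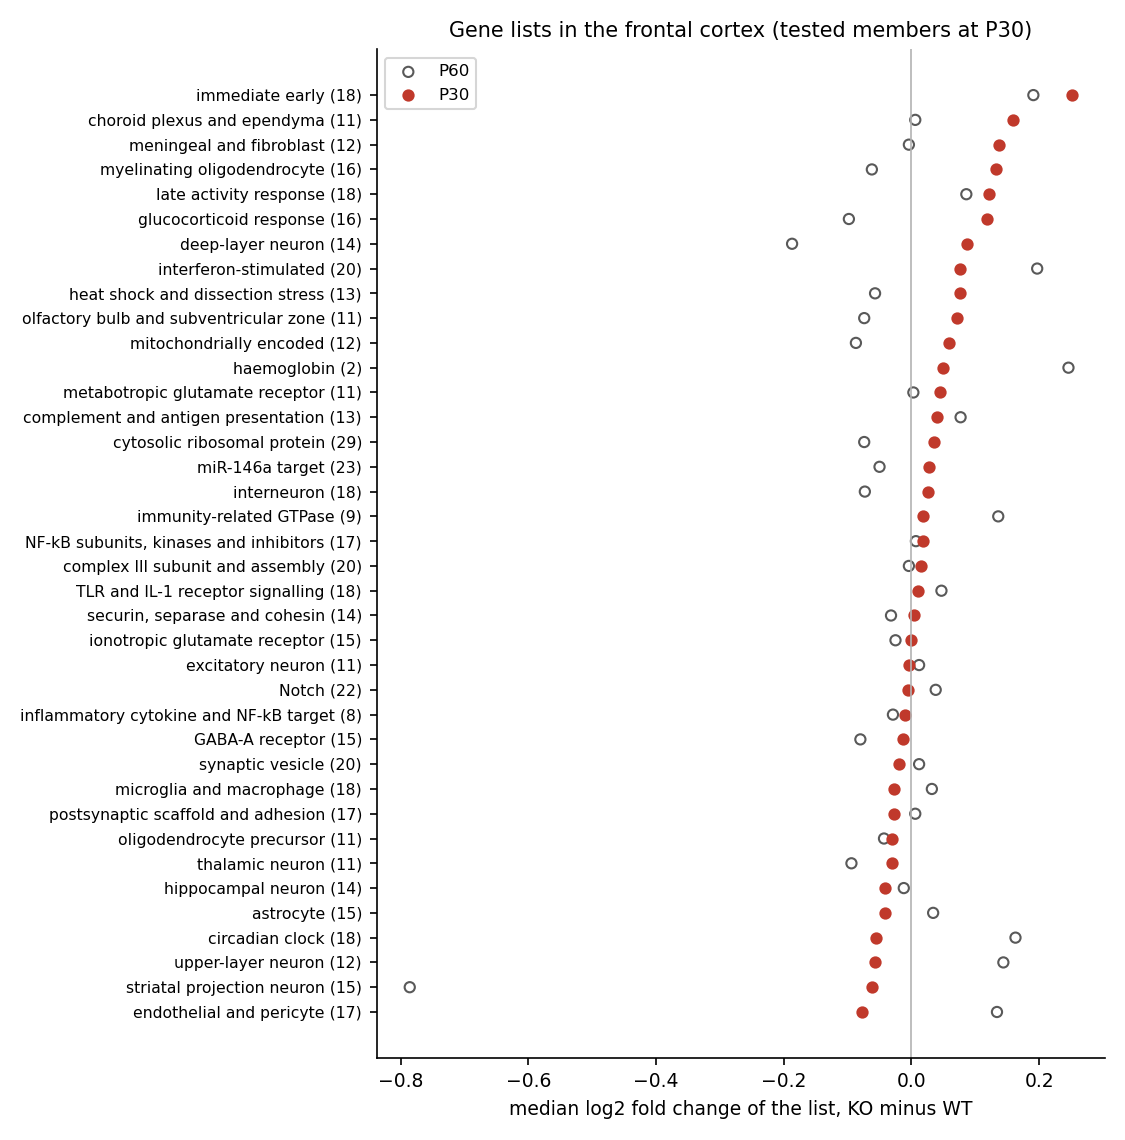
Median log2 difference, KO minus WT (horizontal axis), of the tested members of 38 gene lists in the frontal cortex at P30 (filled) and P60 (open), with the number tested at P30 in brackets. The immediate early list is highest at P30 (0.251), and the striatal list stands apart at P60 (-0.786).

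Of 12 genes listed as encoded in mitochondrial DNA, 6 had an unadjusted p under 0.05, in both directions, and 4 did not overlap, beside 1.96% and 2.36% of all genes. Mt-Cytb, listed with complex III, is encoded there too and is described with them. Mt-Nd5, a complex I subunit, was at 7867, 8439, 8081 and 8417 in KO and 12931, 9075, 9859 and 9273 in WT. Mt-Cytb, the complex III subunit, was at 6774, 7130, 6987 and 7145 against 10307, 7561, 8608 and 7885. In both genes, every KO library lay below every WT library and WT 1 was the highest. The log2 differences were -0.31 for mt-Nd5 and -0.28 for mt-Cytb, with mt-Nd1 at -0.23, mt-Nd2 at -0.26 and mt-Nd6 at -0.21, all without overlap. Mt-Nd3 and mt-Co2 differed the other way, by 0.44 and 0.38. None was called, and at P60 mt-Nd5 differed by 0.034 and mt-Cytb by 0.025.

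Cell type markers described what else the dissected tissue held. In bulk tissue, fewer cells of a type and less RNA per cell cannot be told apart. All 16 tested genes of myelinating oligodendrocytes had KO above WT, with a median of 0.13 and none called. Mog, on the myelin surface, was at 79.9, 60.9, 62.0 and 67.8 in KO and 61.7, 73.5, 45.4 and 50.0 in WT. The low libraries were WT 3 and WT 4, with scores of -1.68 and -0.93 against 0.64 and 0.89 in WT 1 and WT 2. The median of the list was 0.011 without WT 3 and 0.24 without WT 2, and at P60 it was -0.062.

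Astrocyte genes had 1 of 15 above WT and a median of -0.042 (-0.091 without WT 2, -0.013 without KO 2), and 11 of 15 above WT at P60. Gfap, the intermediate filament of astrocytes, was at 75.2, 49.5, 53.7 and 60.6 in KO and 63.3, 56.1, 56.6 and 63.2 in WT. Microglia and macrophage genes had 6 of 18 above WT and a median of -0.028 (-0.060 without KO 4, -0.010 without KO 3). Endothelial and pericyte genes had 4 of 17 above WT (median -0.077, or -0.12 without WT 4 and -0.033 without WT 3), and 12 of 17 at P60. None of these lists held a called gene.

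Markers of tissue beyond the cortex varied between libraries of both genotypes. The mean log2 level of the listed striatal genes was 3.87 to 5.98 in these libraries, with a median of 5.51. It was 2.84 to 3.79 in the hippocampus (median 3.06) and 3.51 to 5.07 in the amygdala (median 3.87). Striatal genes were thus high in most cortex libraries, and a score shows only where a library stood among the cortex libraries. The striatal score was -1.67 in KO 2 and 0.80 in both KO 1 and KO 3, with -1.02 in WT 3 and 0.88 in WT 2. The list's median was -0.062 with all libraries and ranged from -0.32 to 0.40 when 1 library was left out, the upper value without KO 2. Choroid plexus and ependyma genes had a score of 1.71 in KO 2 and 0.73 in WT 2, and -0.19 to -0.72 in the other libraries. Meningeal and fibroblast genes had 11 of 12 above WT with a median of 0.14, and their highest scores were in WT 4 (1.08) and KO 4 (0.78). That median ranged from 0.089 without KO 4 to 0.42 without WT 4, and was 0.34 with sex as a covariate. Whether these shares of tissue or the unequal sexes have a part in the activity, myelin or mitochondrial values was not tested, other than by the fits without 1 library and with sex given above. Pttg1 and 9930111J21Rik2 were called in each of the 15 alternatives, the fits without KO 2, WT 2 or WT 3 included.

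**Figure D5:**
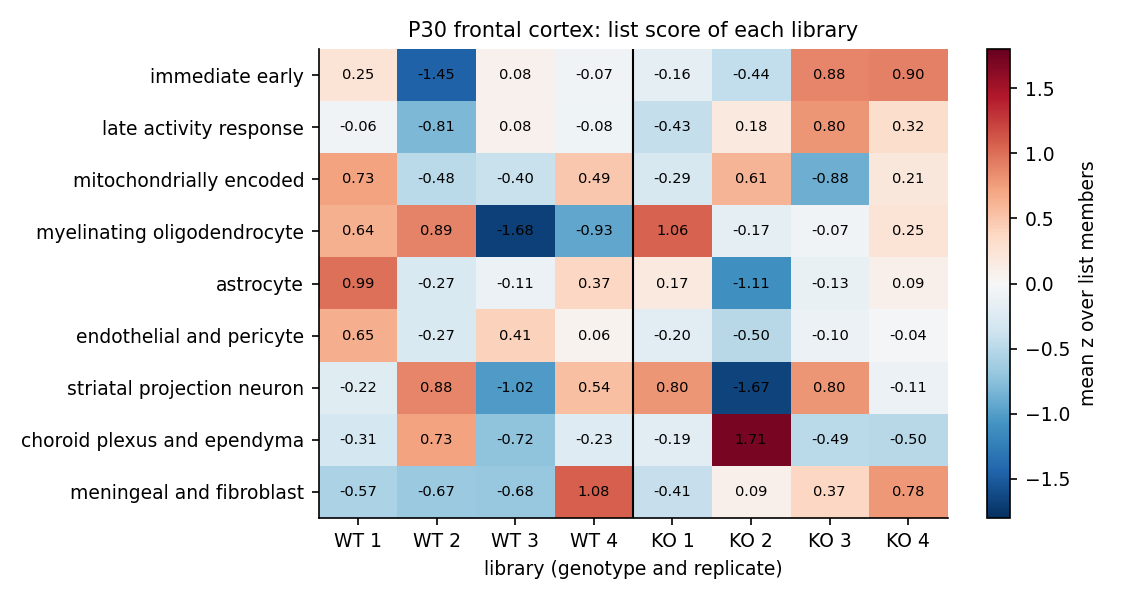
Score of 9 gene lists (rows) in each P30 frontal cortex library (columns, WT 1 to 4 then KO 1 to 4), as the mean over list members of the z value across the 8 libraries; red is high, blue is low. The darkest cells each belong to single libraries: WT 3 for myelin (-1.68), WT 2 for immediate early genes (-1.45) and KO 2 for striatal (-1.67) and choroid plexus genes (1.71).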

How the data were processed

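The authors deposited 1 table per age of normalised read counts per gene, close to CPM, in which each value is a whole number of reads times 1 step per library (100.0% of values within 0.1 read). The submitters' processing notes name DESeq, edgeR, limma and mm9 without their roles. Aligner, counter and strand setting: not given in the sources used here. Positions and 3′ UTRs are from GENCODE M21 (GRCm38), in which 48058 of 48526 gene IDs were found, and not from mm9.

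All 24 libraries of the P30 table entered 1 limma-trend fit (limma 3.58.1, R 4.3.3, robust variance) on log2(value + 1) with 6 groups of genotype and region. P-values were adjusted by Benjamini-Hochberg over 18976 genes that had at least 1.442 in 4 libraries and 15 reads in all, with a threshold of 0.05. The 19 libraries of the P60 table were fitted alone, over 19239 genes that had at least 1.537 in 2 libraries and 15 reads in all. Genes were named by fixed rules: all called genes, those not called with the smallest p under 0.001 and no overlap, and set target and pathway genes. Neighbours within 2 Mb and genes called elsewhere in the series were named too. Unnamed gene models were left out of the smallest-p rule, and the pattern used for them also left out Gm2a. Examples from the lists and among the neighbours within 15 Mb, and the 8mer genes Cd86 and Ube2n, were picked with their values in view. The members, lists and distance windows were chosen with earlier results of these data known. Near-identical transcripts were found with blastn 2.17.0+. Counting intervals cover counting error only. The method was tested on simulated data. Alternatives were another pseudocount, no filter, another scaling, sex, replicate block, cortex alone, each library left out and, added after seeing the data, limma's voom on the recovered reads and, for the difference between regions, same-numbered libraries as 1 animal.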

Additional observations from a re-analysis of the deposited data

Results flagged for a closer look

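In groups of 4 libraries, 1 library stood further from the nearest other than Dixon's 95% limit in 5 of 76 list scores and 5 of 94 gene values examined, where chance gives about 1 in 20. Among list scores, KO 2 was highest of its group for choroid plexus and ependyma genes (1.71) and WT 4 for meningeal and fibroblast genes (1.08). WT 3 was highest for microglia and macrophage genes (0.40), WT 1 for interferon-stimulated genes (0.53) and KO 3 for immunity-related GTPases (0.68). Among reported targets, Irak1 was highest in KO 3 at 48.07, Irak2 lowest in KO 1 at 16.61 and Numb highest in WT 3 at 87.5 (normalised read counts). Nfkbia was lowest in WT 2 at 10.35, and the pseudogene Gm5913 highest in KO 1 at 2.81.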

How the results depend on the processing

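At P30, 3 genes were called by limma in the frontal cortex, and 2 to 3 when 1 library was left out. Without the filter on low values 5 were called, the added ones being the gene models Gm10684 and Gm24965. Pttg1 and 9930111J21Rik2 were called in all 15 alternatives and Lyrm7 in 9. At P60, 6 genes were called, 3 to 5 when 1 library was left out, and 3 without WT 1. No gene was called for the difference from amygdala or hippocampus in any alternative run, including the fit with same-numbered libraries as 1 animal, added after seeing the data. With replicate number as a block, 2 genes were called at P30 and 4 at P60. Same-numbered libraries correlated by -0.156 to 0.0677 at P30 and 0.0307 to 0.224 at P60 in their deviations. Differently numbered ones correlated by -0.246 to 0.159 at P30 and -0.229 to 0.214 at P60, where most were negative. The labels give no basis for the pairing other than the number. Without WT 3 Robo1 differed by -0.002, and without KO 2 Pde10a differed by 0.40, Syndig1l by 0.33 and Dsp by -0.20. Of recomputed list medians, 13 moved by more than the spread between libraries and 557 did not. No called direction reversed. The edgeR and DESeq2 alternatives planned on recovered reads were not run, and limma's voom on those reads was run in their place. With 4 libraries a group and a median SE of 0.154, small changes, and any change in protein, lie below what these data resolve.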

Other observations

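Among neuronal lists, deep-layer genes had 10 of 14 members with KO above WT at P30 and a median log2 difference of 0.087, beside -0.19 at P60. That median was 0.012 without WT 3, 0.175 without WT 2 and -0.014 with sex as a covariate. Upper-layer genes had 5 of 12 above WT and a median of -0.057 at P30 (-0.10 without WT 2, -0.005 without KO 1), and 0.14 at P60. Interneuron genes (18 tested) had a median of 0.026 (-0.021 without KO 1, 0.072 without KO 2) and excitatory neuron genes (11 tested) one of -0.004 (-0.054 without WT 4, 0.040 without WT 1). Circadian clock genes, whose messages follow the hour of dissection, had 7 of 18 above WT and a median of -0.055 at P30 (-0.002 without WT 3) and 0.16 at P60. Heat shock and dissection stress genes had 12 of 13 above WT with a median of 0.076 (0.045 without KO 2, 0.126 without KO 1), and -0.057 at P60. Striatal projection neuron genes had a median of -0.79 at P60. None of these lists held a called gene at P30.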
